A study of Mus musculus with 2 samples.

Results

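The epidermal growth factor (EGF) family was described here through 10 genes of the 27998 in the table, 7 ligands (Areg, Hbegf, Tgfa, Ereg, Btc, Epgn and Nrg1) and 3 receptors (Egfr, Erbb2 and Erbb3), each counted in all 354 cells of regenerating mouse mammary grafts. The genes were chosen by name, and every one of the 10 was detected in both libraries. The question was which cells of the graft carried the message of each ligand and which carried the receptors. Amphiregulin (Areg) and epigen (Epgn) messages lay mostly in luminal cells rich in hormone receptor transcripts, Nrg1 was higher in basal cells, Hbegf was found in all classes and was higher in luminal than in basal cells, and Erbb3 was the receptor on the luminal side.

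The grafts were made from basal mammary epithelial cells that had been exposed to an adenovirus carrying Cre and GFP and were mixed with luminal cells, then placed in the cleared fat pads of young female nude mice, which lack most T cells but keep other immune cells. In the Ctrl library (genotype WT) the basal donor cells kept Fgfr2, and in the Fgfr2 KO library they came from mice with floxed Fgfr2 alleles deleted by that Cre. The luminal donor cells were wild type in both, and luminal and basal donor cells both carried the mTmG membrane reporter. The study reported that basal donor cells, Fgfr2-null ones included, can become luminal in such grafts. Keratin class therefore does not give the donor, and luminal keratin cells of Fgfr2 KO need not be wild type. The grafts were taken days after surgery, and the sorted cells were sequenced by droplet single-cell RNA-seq (10x Genomics), with 1 library per group. There was therefore no replicate, every interval given covers counting error only, and a difference between the libraries is a difference between 2 libraries and cannot be told apart from a difference between animals or preparations.

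The Ctrl library held 268 cells with a median of 16301 unique molecular identifiers (UMIs, each a counted RNA molecule) and the Fgfr2 KO library 86 cells with a median of 10485, and the libraries shared 0 barcodes. Cells with at least 1 UMI of Ptprc, which encodes the pan-leukocyte protein CD45, were called CD45-positive. The other cells were called basal or luminal keratin cells by the larger of the Krt14 and Krt5 sum and the Krt8 and Krt18 sum, with at least 10 UMIs over these 4 genes, and low keratin cells below that. This gave 63 basal keratin, 98 luminal keratin, 73 CD45-positive and 34 low keratin cells in Ctrl, and 17, 20, 23 and 26 cells in Fgfr2 KO. The labelled cell type, epithelial cells, was thus carried by keratin in 161 and 37 cells. In Ctrl the summed level of 8 basal markers was 6324 UMIs per 1000000 (CPM) in basal and 1042 CPM in luminal keratin cells, that of 6 luminal markers was 2105 and 8640 CPM, and that of 7 immune markers was 7973 CPM in CD45-positive cells. Fgfr2 itself measured 32.9 CPM in basal keratin cells of Ctrl (95% Poisson interval 23.6 to 44.7, 41 UMIs) and 24.7 CPM in those of Fgfr2 KO (9.94 to 51.0, 7 UMIs). Whether the counted 3′ ends lie in the deleted part of the gene is not given in the sources used here, so this level does not check the label.

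EGF family ligands are made as membrane-bound precursors that proteases of the ADAM family cut free. Amphiregulin, TGF-alpha and epigen bind EGFR, betacellulin, HB-EGF and epiregulin bind EGFR and ERBB4, and neuregulin 1 binds ERBB3 and ERBB4, while ERBB2 has no known ligand of its own and pairs with the others. In the mammary gland amphiregulin is known as the estrogen-induced signal of ductal growth, sent from hormone receptor-positive luminal cells.

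Epgn, Ereg, Areg and Btc lie together within 375.5 kb of chromosome 5 (GRCm38, the same assembly as mm10). Areg spans chr5:91139599-91148432 and Epgn chr5:91027464-91035215 on the plus strand, and Btc spans chr5:91357261-91402994 on the minus strand. Of the others, Tgfa is on chromosome 6, Nrg1 on chromosome 8, Erbb3 on chromosome 10, and Egfr and Erbb2 on chromosome 11. The 150 bases before the annotated start are shown for the 3 ligands of this group whose promoter was matched. They are from RefSeq promoter sequence of GRCm38, 5′ to 3′ on the strand of the gene. RefSeq promoters were matched for 6 of the 10 members. The windows are chr5:91139449-91139598 for Areg and chr5:91027314-91027463 for Epgn, both on the plus strand, and chr5:91402995-91403144 for Btc on the minus strand. Capitals mark matches to TATAAA or to the cyclic AMP response element TGACGTCA.
Areg: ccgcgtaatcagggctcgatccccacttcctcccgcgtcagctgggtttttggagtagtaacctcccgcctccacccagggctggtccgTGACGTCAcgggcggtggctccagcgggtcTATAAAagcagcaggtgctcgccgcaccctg
Epgn: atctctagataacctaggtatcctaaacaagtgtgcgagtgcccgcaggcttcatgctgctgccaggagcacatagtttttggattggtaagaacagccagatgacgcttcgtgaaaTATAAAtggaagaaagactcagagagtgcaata
Btc: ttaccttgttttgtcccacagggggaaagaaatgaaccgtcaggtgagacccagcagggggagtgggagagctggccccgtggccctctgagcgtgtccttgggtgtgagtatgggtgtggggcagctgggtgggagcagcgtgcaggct
Areg held TATAAA from 31 bases and TGACGTCA from 61 bases before its start, Epgn held TATAAA from 33 bases before its start, and Btc held neither. On either strand, TATAAA was in 7.57% and TGACGTCA in 1.36% of the 32851 RefSeq promoters over the same length. The AP-1 motif TGANTCA, in 4.24% of promoters, had no match in these 3 windows. No motif overlapped another, and a match is a description of the sequence.

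Among the ligands, Areg was mostly luminal. In Ctrl 1691 of its 1770 UMIs lay in luminal keratin cells, at 643 CPM (613 to 675), and 14 UMIs in basal keratin cells, at 11.2 CPM (6.14 to 18.9). In Fgfr2 KO the levels were 427 CPM (374 to 486) in luminal and 10.6 CPM (2.19 to 31.0) in basal keratin cells, and the luminal keratin cells held 68.8% and the CD45-positive cells 30.0% of the Areg UMIs. The luminal level was 57.2-fold the basal level in Ctrl, a log2 ratio of 5.84 (95% counting interval 5.09 to 6.71), and the log2 ratio in Fgfr2 KO was 5.33 (3.77 to 7.62). The luminal and basal intervals were far apart in both libraries. A gene was counted as higher or lower where it had at least 20 UMIs over both sides, differed at least 2-fold and had a counting interval that left out equality. By that rule 6.93% of 9537 genes were higher and 5.11% lower in luminal than in basal keratin cells of Ctrl, and 8.66% of 4655 genes were higher and 6.06% lower in Fgfr2 KO. Of the 10 members, 8 had enough UMIs in Ctrl, with 4 higher (Areg, Hbegf, Epgn and Erbb3) and 1 lower (Nrg1). In Fgfr2 KO 3 members had enough UMIs, with Areg and Hbegf higher and Nrg1 lower.

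**Figure D1:**
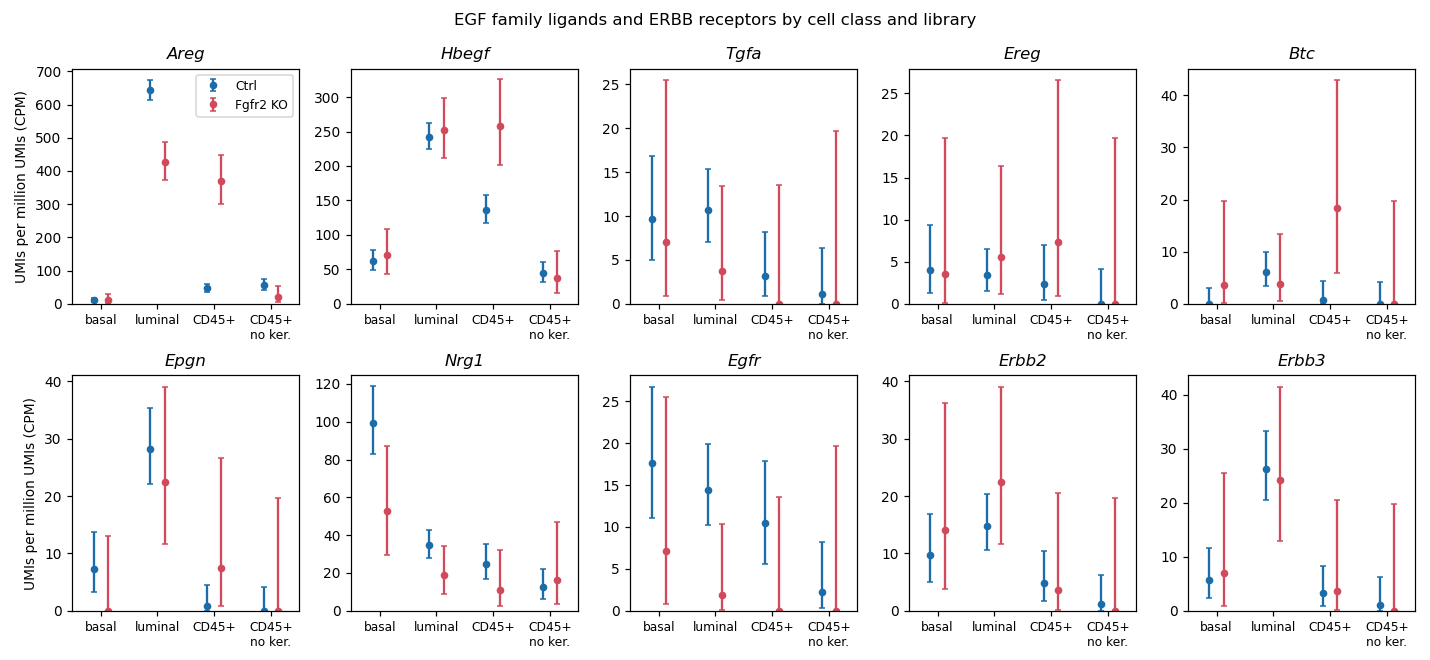
UMIs per 1000000 UMIs (CPM, linear axis from 0) of each of the 10 members in basal keratin, luminal keratin and CD45-positive cells, and in CD45-positive cells without keratin-rich cells ("no ker."), for Ctrl (blue) and Fgfr2 KO (red); points are summed counts of 1 library and bars their 95% Poisson intervals. Areg in Ctrl stands at 643 CPM in luminal and 11.2 CPM in basal keratin cells, and Nrg1 at 34.6 and 99.5 CPM.

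Hbegf, which encodes heparin-binding EGF-like growth factor, was found in every class. Its level in Ctrl was 243 CPM (224 to 262) in luminal keratin cells and 62.6 CPM (49.5 to 78.2) in basal keratin cells, and in Fgfr2 KO it was 252 CPM (211 to 298) and 70.7 CPM (43.2 to 109). The log2 luminal over basal ratio was 1.95 (1.61 to 2.31) in Ctrl and 1.83 (1.15 to 2.59) in Fgfr2 KO. Hbegf thus differed less between the keratin classes than Areg did in each library, with intervals of the log2 ratio that did not overlap.

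Epgn resembled Areg in its side but had few UMIs. It measured 28.2 CPM (22.1 to 35.3) in luminal and 7.23 CPM (3.30 to 13.7) in basal keratin cells of Ctrl, a log2 ratio of 1.96 (0.96 to 3.15). Where the keratin sums had to differ 4-fold it was 4.49, but this rests on 1 UMI in 35 basal cells. In Fgfr2 KO 12 UMIs lay in luminal and 0 in basal keratin cells, but 10 of the 12 came from 1 cell. Btc, the betacellulin gene, had 16 UMIs in 14 luminal keratin cells and 0 in 63 basal keratin cells of Ctrl, too few UMIs for the rule. The counting interval of its log2 ratio began at 0.87, and in Fgfr2 KO it had 2 and 1 UMIs.

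Nrg1, the neuregulin gene, went the other way. It measured 99.5 CPM (82.8 to 119) in basal and 34.6 CPM (27.9 to 42.5) in luminal keratin cells of Ctrl, and 53.0 CPM (29.7 to 87.4) and 18.6 CPM (8.94 to 34.3) in Fgfr2 KO. The log2 luminal over basal ratio was -1.52 (-1.93 to -1.12) in Ctrl and -1.51 (-2.82 to -0.26) in Fgfr2 KO. Nrg1 UMIs were found in 35 of 63 basal keratin cells of Ctrl, with at most 14 in a cell, and in 34 of 98 luminal keratin cells, with at most 9. Without the top cell of each class the log2 ratio in Fgfr2 KO was -1.50, and fewer than 20 UMIs remained, too few for the rule.

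Tgfa and Ereg showed no difference between the keratin classes that the counts could resolve. Tgfa, the TGF-alpha gene, measured 10.7 CPM in luminal and 9.63 CPM in basal keratin cells of Ctrl (log2 ratio 0.15, -0.88 to 1.26), and had 2 UMIs in each class of Fgfr2 KO. Ereg, the epiregulin gene, had 9 and 5 UMIs in Ctrl and 3 and 1 in Fgfr2 KO, and 6 of the 9 luminal UMIs came from 1 cell.

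Of the receptors, Erbb3, whose protein binds neuregulins but has little kinase activity, was higher in luminal keratin cells. It measured 26.3 CPM (20.4 to 33.2) in luminal and 5.62 CPM (2.26 to 11.6) in basal keratin cells of Ctrl, a log2 ratio of 2.22 (1.10 to 3.59). Where the keratin sums had to differ 4-fold it was 3.29, but this rests on 2 UMIs in 35 basal cells. In Fgfr2 KO it measured 24.2 CPM (12.9 to 41.5) and 7.07 CPM (0.856 to 25.5), from 13 and 2 UMIs, with a log2 ratio of 1.78 (-0.36 to 4.97). The ligand Nrg1 and the receptor Erbb3 therefore had opposite sides in Ctrl. Erbb3 UMIs were in 46 of 98 luminal keratin cells (46.9%, exact binomial interval 36.8 to 57.3) and in 7 of 63 basal keratin cells (11.1%, 4.59 to 21.6), at median depths of 22668.5 and 16117 UMIs. After each cell was thinned to 5000 UMIs the expected shares were 11.9% and 3.31%, in the same order.

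Egfr, the receptor of amphiregulin, was detected in both keratin classes of Ctrl with no resolved difference. It measured 14.5 CPM (10.2 to 19.8) in luminal and 17.7 CPM (11.1 to 26.7) in basal keratin cells, a log2 ratio of -0.29 (-1.08 to 0.54). In Fgfr2 KO Egfr had 1 UMI in luminal and 2 UMIs in basal keratin cells. Erbb2 measured 14.8 CPM (10.6 to 20.3) in luminal and 9.63 CPM (4.98 to 16.8) in basal keratin cells of Ctrl (log2 ratio 0.62, -0.34 to 1.69), and 22.4 CPM and 14.1 CPM in Fgfr2 KO (0.66, -1.06 to 2.75). At least 1 receptor UMI was found in 69 of 98 luminal (70.4%) and 27 of 63 basal (42.9%) keratin cells of Ctrl, and in 12 of 20 and 6 of 17 cells of Fgfr2 KO. Erbb2 and Erbb3, which form a receptor pair, were both detected in 17 luminal and 2 basal keratin cells of Ctrl.

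The luminal keratin cells were then divided by hormone receptor transcripts, a division and a limit chosen after the values were seen. Cells with at least 2 UMIs of Esr1, Pgr and Prlr per 10000 UMIs, the estrogen, progesterone and prolactin receptor genes, were called hormone receptor-rich, which gave 41 rich and 57 other cells in Ctrl and 6 and 14 in Fgfr2 KO. Between 1 and 3 UMIs per 10000, near the limit, lay 11 and 3 cells. Foxa1, a transcription factor gene of the hormone-sensing lineage that the division did not use, measured 187 CPM in the rich and 35.9 CPM in the other cells of Ctrl, whereas Csn3, a milk protein gene, measured 43.6 and 756 CPM. In Fgfr2 KO these markers did not set the 6 rich cells apart, with Foxa1 at 124 CPM (77.9 to 188) in rich and 139 CPM (103 to 183) in other cells and Csn3 at 226 CPM (161 to 308) and 320 CPM (264 to 384), so the division rests there on the 3 receptor genes alone.

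Areg was concentrated in the hormone receptor-rich cells. In Ctrl it measured 1585 CPM (1508 to 1666) in rich and 77.9 CPM (65.0 to 92.7) in other luminal cells, a log2 ratio of 4.35 (4.09 to 4.62), and in Fgfr2 KO 1226 CPM (1068 to 1401) and 33.4 CPM (17.3 to 58.3), a log2 ratio of 5.20 (4.36 to 6.17). The size in Ctrl depended on the limit, and at 4 hormone receptor UMIs per 10000 the log2 ratio was 2.11. A Ctrl cell just above the limit, at 2.67, held 89.2 Areg UMIs per 10000, and the highest Areg value, 118, lay at 12.7. The cells with most receptor UMIs, at 27.3 and 26.7 per 10000, held 0 and 0.99 Areg UMIs per 10000. Among all genes 8.05% of 8562 were higher and 9.31% lower in the rich cells of Ctrl, and 9.04% of 3384 were higher and 12.5% lower in those of Fgfr2 KO. Of the members with enough UMIs, 3 of 8 were higher and 2 lower in Ctrl, and 1 of 2 was higher and 0 lower in Fgfr2 KO.

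Epgn and Erbb3 lay on the same side as Areg. Epgn measured 62.9 CPM (48.2 to 80.6) in rich and 7.31 CPM (3.78 to 12.8) in other luminal cells of Ctrl, a log2 ratio of 3.11 (2.20 to 4.13), and had 11 UMIs in rich, 10 of them in 1 cell, and 1 in other cells of Fgfr2 KO. Erbb3 measured 43.6 CPM (31.6 to 58.7) and 15.8 CPM (10.3 to 23.2) in Ctrl, a log2 ratio of 1.46 (0.73 to 2.22), with 9 and 4 UMIs in Fgfr2 KO. Btc had 12 UMIs in 10 rich cells and 4 UMIs in 4 other cells of Ctrl, a log2 ratio of 2.32 (0.60 to 4.41), with too few UMIs for the rule.

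Egfr and Nrg1 lay on the opposite side. Egfr had 3 UMIs in 3 of 41 rich cells and 35 UMIs in 22 of 57 other luminal cells of Ctrl, or 3.04 CPM (0.627 to 8.89) and 21.3 CPM (14.8 to 29.6), a log2 ratio of -2.81 (-5.15 to -1.14). Nrg1 had 13 and 78 UMIs, a log2 ratio of -1.85 (-2.82 to -0.99). In Fgfr2 KO Egfr had 0 UMIs in rich and 1 in other luminal cells, and Nrg1 0 and 10. The cells with most of the Areg message therefore held few Egfr UMIs in Ctrl, although their median depth, 21975 UMIs, was near the 25548 UMIs of the other luminal cells. Areg and Egfr UMIs occurred together in 19 of 98 luminal keratin cells of Ctrl, and the part of free Areg RNA in these was not tested.

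Hbegf was close to equal on the 2 sides of this division. It measured 220 CPM (192 to 251) in rich and 256 CPM (232 to 282) in other luminal cells of Ctrl (log2 ratio -0.22, -0.46 to 0.02), and 249 and 253 CPM in Fgfr2 KO (-0.03, -0.58 to 0.51). Ereg had 0 UMIs in 41 rich and 9 in 57 other cells of Ctrl. Erbb2 had a log2 ratio of 0.36 (-0.64 to 1.34) and Tgfa of 1.15 (-0.02 to 2.36).

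**Figure D2:**
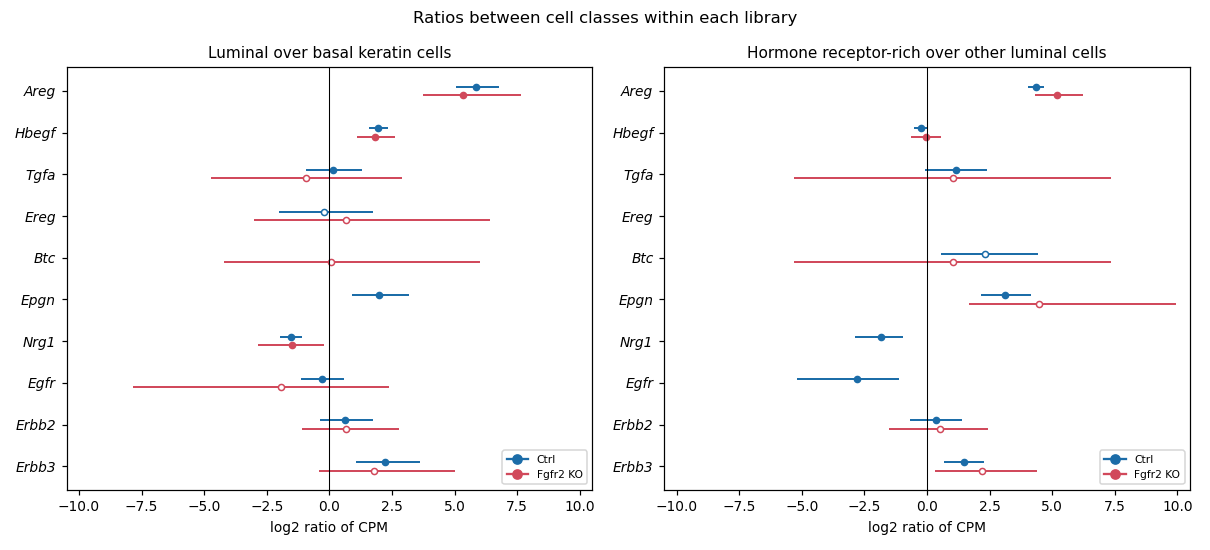
Log2 ratio of CPM for each member, luminal over basal keratin cells (left) and hormone receptor-rich over other luminal keratin cells (right), in Ctrl (blue) and Fgfr2 KO (red); bars are 95% counting intervals, open points have under 20 UMIs over both sides, and members with 0 UMIs on a side are not drawn. Areg, Epgn and Erbb3 lie to the right of 0 in both panels for Ctrl, while Egfr lies near 0 on the left (-0.29) and at -2.81 on the right.

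Within the luminal keratin cells Areg was unevenly shared. UMIs of Areg were found in 71 of 98 luminal keratin cells of Ctrl, but the top 2 cells, with 334 and 317 UMIs, held 38.5% of the class total and the top 10 cells 75.0%. Leaving out the top cell of each class changed the luminal over basal log2 ratio by less than its counting interval. Cells with at least 10 Areg UMIs numbered 26 in Ctrl, of which 24 were luminal keratin cells, 20 were hormone receptor-rich and 23 held a Prlr UMI, and they carried 90.1% of the Areg UMIs of the library. In Fgfr2 KO there were 5 such cells with 94.0%, of which 4 were hormone receptor-rich luminal keratin cells and 1 was a CD45-positive cell rich in keratin with 96 Areg UMIs, which also met the hormone receptor limit. The intervals above take no account of this spread between cells.

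Hbegf was also carried by a subset of cells, but a partly different one. The 22 Ctrl cells with at least 10 Hbegf UMIs carried 68.2% of the Hbegf message, and 16 of them were luminal keratin cells, 5 were hormone receptor-rich and 7 also had at least 10 Areg UMIs. In Fgfr2 KO the 5 such cells carried 71.9%, and 3 of them also had at least 10 Areg UMIs. UMIs of both ligands occurred together in 52 of 98 luminal keratin cells of Ctrl.

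**Figure D3:**
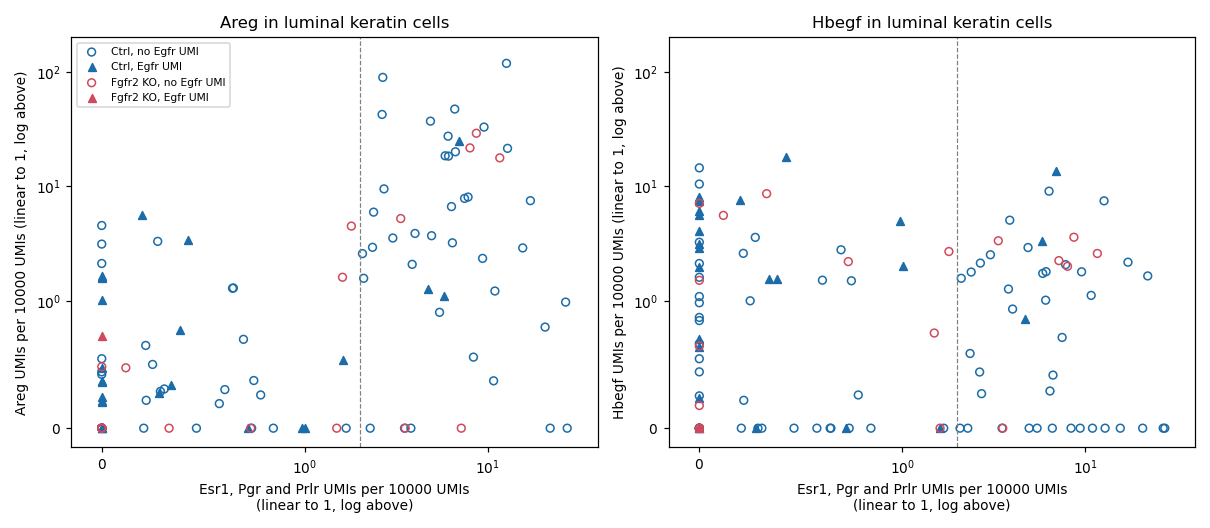
Areg (left) and Hbegf (right) UMIs per 10000 UMIs against the summed Esr1, Pgr and Prlr UMIs per 10000 UMIs in each luminal keratin cell of Ctrl (blue, 98 cells) and Fgfr2 KO (red, 20 cells); both axes are linear to 1 and logarithmic above, filled triangles are cells with an Egfr UMI, and the dashed line is the limit of 2. High Areg values lie to the right of the line, high Hbegf values on both sides of it, and 3 of the 25 Ctrl triangles lie to the right.

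The order of the keratins gave the same sides in Ctrl. Cells were set apart where one keratin sum was at least 4-fold the other, which left 71 luminal, 55 mixed and 35 basal cells. Areg measured 845 CPM (805 to 887) in the luminal, 32.6 CPM (23.5 to 44.1) in the mixed and 12.7 CPM (5.50 to 25.1) in the basal cells, and Erbb3 31.1, 10.1 and 3.18 CPM. Nrg1 measured 22.0 CPM (15.9 to 29.6), 90.9 CPM (75.2 to 109) and 87.6 CPM (66.0 to 114), so that the mixed cells were near the basal cells. Egfr measured 11.7 CPM (7.44 to 17.6), 22.5 CPM (15.1 to 32.4) and 12.7 CPM (5.50 to 25.1), with overlapping intervals.

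CD45-positive cells held less of most members than the keratin cells. In Ctrl 6 of 8 members with enough UMIs were lower in CD45-positive than in basal and luminal keratin cells combined (Areg, Tgfa, Epgn, Nrg1, Erbb2 and Erbb3) and none was higher, where 17.2% of 10366 genes were lower and 9.15% higher. The log2 ratio was -3.24 (-3.65 to -2.86) for Areg, -1.16 (-1.75 to -0.61) for Nrg1 and -2.61 (-4.53 to -1.20) for Erbb3. The count lower ranged from 4 to 8 over the alternatives, and Nrg1, at -0.61 with a 4-fold keratin difference and -0.98 with immune genes also used to define the class, was then under 2-fold. In Fgfr2 KO 0 of 3 members were higher or lower, where 12.9% of 5691 genes were lower and 10% higher.

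Part of this class was rich in keratin. In 8 CD45-positive cells of Ctrl and 1 of Fgfr2 KO the keratin UMIs outnumbered those of 6 immune genes, and each of the 9 had a single Ptprc UMI. These 8 Ctrl cells held 131 of the 170 Hbegf UMIs of the class, 20 of 31 Nrg1 UMIs and 11 of 13 Egfr UMIs, and the 1 cell of Fgfr2 KO, with 83994 UMIs, held 96 of 100 Areg and 63 of 70 Hbegf UMIs. Without them, 65 cells of Ctrl had Hbegf at 44.2 CPM in place of 136 CPM, and 22 cells of Fgfr2 KO had 4 Areg and 7 Hbegf UMIs. Receptors were then near 0, with 2 Egfr, 1 Erbb2 and 1 Erbb3 UMIs in Ctrl and 0 of each in Fgfr2 KO. Ereg, Btc and Epgn were at 0 in both, with an upper limit of 4.18 CPM for each in the 65 Ctrl cells.

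Areg and Hbegf were still found in CD45-positive cells without keratin-rich cells. Areg had 51 UMIs in 22 of 65 cells of Ctrl (33.8%, 22.6 to 46.6), at 57.8 CPM and a median depth of 11580 UMIs, against 72.4% of luminal keratin cells at 22668.5 UMIs, and 22 of these UMIs lay in 2 cells with 12 and 10. Hbegf had 39 UMIs in 24 of 65 cells (36.9%, 25.3 to 49.8). These cells also held 351 Krt8 and Krt18 UMIs, and Areg amounted to 14.5 UMIs per 100 of those, against 13.7 in luminal keratin cells and 1.20 in basal keratin cells. For Hbegf the values were 11.1, 5.16 and 6.70. The part of free RNA from luminal cells in these counts was not tested. Nrg1 had 11 UMIs in 7 of the 65 cells, at 12.5 CPM. Low keratin cells of Ctrl, of which 16 of 34 had at least 10 UMIs of the 6 immune genes, held 46 Hbegf UMIs in 9 cells, 36 of them in 2 cells, and 13 Nrg1 UMIs in 6 cells. The summed level of 6 fibroblast markers in these low keratin cells was 19044 CPM and that of the 7 immune markers 4891 CPM, and which cells of the class made the ligands was not tested.

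Between the libraries, Egfr was the epithelial member past the 2-fold rule, and the counts of Fgfr2 KO were too low to resolve most others. The study's methods combined the libraries with the aggregation step of Cell Ranger, which can thin the reads of the deeper library, and the setting used is not given in the sources used here. In basal keratin cells 0 of 3 members with enough UMIs were higher or lower in Fgfr2 KO by the 2-fold rule, where 2.29% of 6639 genes were higher and 4.08% lower. Nrg1 had a log2 ratio of Fgfr2 KO over Ctrl of -0.91 (-1.79 to -0.13), under 2-fold with an interval below 0, and Hbegf of 0.17 (-0.61 to 0.90). Egfr had 2 and 22 UMIs, a log2 ratio of -1.32 (-4.45 to 0.70).

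In luminal keratin cells 1 of 8 members passed the rule, Egfr, which was lower in Fgfr2 KO, where 4.21% of 9067 genes were lower and 2.57% higher. Egfr had 1 UMI in 20 cells of Fgfr2 KO and 38 UMIs in 98 cells of Ctrl, a log2 ratio of -2.95 (-8.30 to -0.39), and 8 of the 38 came from 1 cell. No member passed where the keratin sums had to differ 4-fold or 50 UMIs were asked for. Areg was lower by less than 2-fold, with a log2 ratio of -0.59 (-0.80 to -0.39), which became -0.18 where the keratin-rich CD45-positive cells were placed by their keratins. Tgfa (2 and 28 UMIs, -1.51, -4.63 to 0.47) and Nrg1 (10 and 91 UMIs, -0.89, with an upper bound of 0.05) had negative log2 ratios with intervals that reached past 0, and the Nrg1 ratio ranged from -1.55 to -0.81 over the alternatives. Hbegf (0.05, -0.23 to 0.32), Erbb3 (-0.11, -1.09 to 0.75), Erbb2 (0.59, -0.48 to 1.56) and Epgn (-0.33, -1.35 to 0.56) had intervals that held 0. In CD45-positive cells Areg was higher in Fgfr2 KO, with a log2 ratio of 2.99 (2.51 to 3.48), where 6.15% of 6346 genes were higher and 5.4% lower, but 96 of the 100 Fgfr2 KO UMIs came from the 1 keratin-rich cell, and with such cells placed by their keratins the log2 ratio was -1.44.

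**Figure D4:**
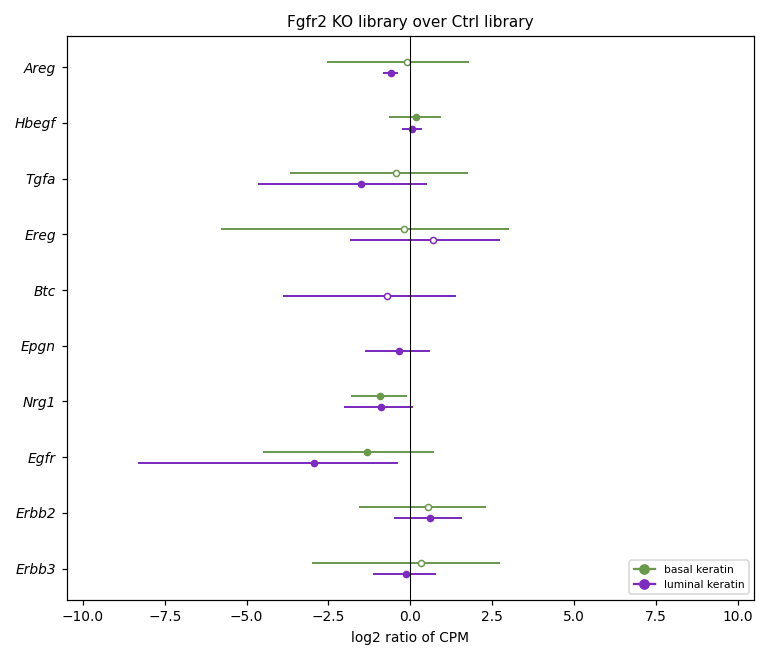
Log2 ratio of CPM, Fgfr2 KO library over Ctrl library, for each member in basal (green) and luminal (purple) keratin cells; bars are 95% counting intervals, open points have under 20 UMIs over both libraries, and members with 0 UMIs in a library are not drawn. Most intervals cross 0, and Egfr in luminal keratin cells stands at -2.95.

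The wider pathway was read from 34 further genes. Of the ligands and the receptor outside the 10 members, Nrg3, Nrg4 and Erbb4 had 0 UMIs in basal and luminal keratin cells of Ctrl, Egf had 2 and Nrg2 had 9. Nrg4 had 5 UMIs in 4 CD45-positive cells of Ctrl and 1 UMI in those of Fgfr2 KO. Between luminal and basal keratin cells of Ctrl 28 of the 34 genes had enough UMIs, with 1 higher and 2 lower, where 6.93% of all genes were higher and 5.11% lower. The higher one was Adam10 (357 and 50 UMIs, log2 ratio 1.76, 1.33 to 2.22), which encodes a protease that frees EGF family ligands from the membrane. Lower were Spred1 (-1.50, -1.97 to -1.03), an inhibitor of Ras signalling, and Socs3 (-1.19, -1.39 to -0.99), an inhibitor of cytokine signalling, and both were also lower in Fgfr2 KO (-1.85 and -1.90), whereas Adam10 did not pass there (44 and 15 UMIs, 0.63, -0.24 to 1.58). The other calls among the 18 pathway genes with enough UMIs in Fgfr2 KO were Ccnd1, the cyclin D1 gene, higher (222 and 26 UMIs, 2.17, 1.58 to 2.82), and Myc, lower (-1.24, -2.29 to -0.22). That made 1 higher and 3 lower in Fgfr2 KO, where 8.66% of 4655 genes were higher and 6.06% lower. The median log2 ratio in Ctrl was 1.29 over the 8 members, 0.13 over the pathway genes and 0.11 over all genes tested.

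Between hormone receptor-rich and other luminal cells of Ctrl 5 of 28 pathway genes were higher and 6 lower, where 8.05% of all genes were higher and 9.31% lower. Adam10 was on the side of Areg, with a log2 ratio of 2.14 (1.80 to 2.49) in Ctrl and 2.79 (1.74 to 3.97) in Fgfr2 KO. The early response gene Fos (1.51, 1.41 to 1.62) and the Ras and ERK pathway inhibitors Spry1 (1.74, 0.80 to 2.74) and Spred2 (1.70, 0.89 to 2.56) were higher as well. The fifth was the early response gene Ier3 (1.46, 1.34 to 1.57). Among the lower genes were the transcription factor genes Etv5 (-1.62, -2.93 to -0.51) and Fosl1 (-1.45, -2.68 to -0.39), the phosphatase gene Dusp6 (-1.32, -1.75 to -0.91) and Lrig1 (-1.75, -3.48 to -0.36), an inhibitor of EGF receptors. The 9 early targets were thus divided, with 2 higher and 2 lower, and in Fgfr2 KO none of Etv5 (4 and 9 UMIs), Fosl1 (1 and 7 UMIs) and Dusp6 (-0.44, -1.36 to 0.42) passed the rule. Besides Adam10, the pathway genes that passed it in Fgfr2 KO were Fos (1.02, 0.82 to 1.23) and Ier3 (1.19, 0.81 to 1.57), higher, and Ccnd1 (-1.45, -2.02 to -0.91) and Spry2 (-1.56, -3.55 to -0.02), lower. That made 3 higher and 2 lower of 14 pathway genes with enough UMIs, where 9.04% of 3384 genes were higher and 12.5% lower. In Ctrl Ccnd1 lay on the other side, under 2-fold (0.37, 0.18 to 0.57). The median log2 ratio over the 28 pathway genes was 0.05 and over all genes tested -0.05.

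In CD45-positive cells of Ctrl 3 of 28 pathway genes were higher and 10 lower than in keratin cells, where 9.15% of all genes were higher and 17.2% lower. Adam17, the main protease of amphiregulin, was higher (log2 ratio 2.07, 1.61 to 2.53), as were the adaptors Cbl (1.42) and Grb2 (1.23). Rhbdf1, which encodes one of the alternative partners with which ADAM17 matures, was lower (-2.84, -4.49 to -1.57), while Rhbdf2, which encodes the partner known from immune cells, had no resolved difference (17 and 65 UMIs, -0.30, -1.16 to 0.49). The EGFR inhibitor gene Errfi1 (-2.32, -2.76 to -1.90), Ier3 (-1.69) and Lrig1 (-1.63) were lower as well. The median log2 ratio was -0.65 over the pathway genes and -0.35 over all genes tested. Between libraries Dusp4, a phosphatase of the ERK pathway, was lower in Fgfr2 KO in basal (-2.15, -3.30 to -1.19) and luminal keratin cells (-1.31, -1.85 to -0.81), and Ccnd1 was lower in basal keratin cells (-1.19, -1.83 to -0.61), which made 2 of 24 and 2 of 28 pathway genes lower, Ier3 (-1.10) being the other in luminal cells, where 4.08% and 4.21% of all genes were lower. Dusp4 (-1.32, -2.23 to -0.53) and Ccnd1 (-1.88, -3.12 to -0.86) were also lower in CD45-positive cells of Fgfr2 KO, and without the keratin-rich cells, an alternative chosen after seeing the data, they stood at -1.34 (-2.43 to -0.41) and -2.29 (-5.38 to -0.35), the latter from 2 and 46 UMIs. In the same comparison of CD45-positive cells 2 of 22 pathway genes were lower and 4 higher, where 5.4% of all genes were lower and 6.15% higher, and the higher ones were Dusp5 (1.32), Ier3 (1.25), Fos (1.06) and Egr1 (1.02). Without the keratin-rich cells Dusp5 stood at 1.61, and Ier3 (0.73), Fos (0.40) and Egr1 (0.66) were under 2-fold, while Socs3 (1.12, 0.64 to 1.58) was then higher and Adam17 (-1.24, -2.50 to -0.20) and Phlda1 (-1.11, -1.92 to -0.39) lower by the rule. The medians over the pathway genes were -0.08 in basal and -0.29 in luminal keratin cells, against -0.10 and -0.03 over all genes tested.

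The genes whose levels moved most like those of the 3 ligands with at least 100 UMIs across the 161 keratin cells of Ctrl were sought among 9073 genes, by Pearson correlation of log-transformed UMIs per 10000. The cells share a library and differ in depth and class, so these values describe the library. Areg was most like Celf4 (r = 0.72), the luminal keratin gene Krt19 (0.70) and Sprr1a (0.68), which had r of 0.60, 0.61 and 0.54 over the 37 keratin cells of Fgfr2 KO. Hbegf was most like Fam107b (0.49), Tnfrsf12a (0.46) and 2200002D01Rik (0.43), with 0.19, 0.55 and 0.53 in Fgfr2 KO. Nrg1 was most like Mgp (0.51), the matrix Gla protein gene, 1500015O10Rik (0.45) and Gas1 (0.43), with 0.35, -0.17 and 0.11 in Fgfr2 KO. All 3 genes of Nrg1 and Fam107b of Hbegf were thus under the limit of 0.4 in Fgfr2 KO.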

How the data were processed

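The counts are UMI counts per gene and cell, deposited as 1 table for both libraries, which the authors made with Cell Ranger 2.1.1 on mm10 per the labels. The study's methods name another version and combined the libraries with its aggregation function, which can thin the reads of the deeper library. No cell or gene was removed here. UMIs were summed per class and library and scaled to CPM. Levels have exact Poisson intervals, ratios exact conditional binomial intervals and shares exact Clopper-Pearson intervals, all at 95% and for counting error only. With 1 library per group no test was run and no p-value is given. Scrublet, run through Scanpy 1.11.5, called 2 of 268 Ctrl and 6 of 86 Fgfr2 KO cells doublets, which were kept in the main values and left out in an alternative. Library labels came from the column names. Named genes were the 10 members, the pathway genes that passed the size rule (at most 4 per direction by size, with Ier3 and Rhbdf2 named beyond it after their values were seen) and, for likeness, the top 3 genes with r of at least 0.4. Foxa1 and Csn3 were named after their values were seen. Python 3.11.15, numpy 2.4.6, pandas 2.3.3 and SciPy 1.17.1 were used, and the interval code was tested on simulated data. The members and lists were chosen with earlier results of these data known.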

Additional observations from a re-analysis of the deposited data

How the results depend on the processing

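Of 760 log2 ratios of members recomputed under the alternatives that define cells and classes, 705 stayed within their counting error, 51 moved beyond it and 4 reversed, that is, a ratio past the 2-fold rule changed sign. No paired analysis was possible because each group is 1 library, and for the same reason no replicate could be left out. The reversed value was the Areg log2 ratio of Fgfr2 KO over Ctrl in CD45-positive cells, which was -0.99 with at least 2 Ptprc UMIs, -1.44 with keratin-rich cells placed by their keratins (chosen after seeing the data), -0.037 with every cell weighted the same and -0.80 without the top cell of each side. Ratios under 2-fold also changed sign. Hbegf in the same comparison went from 0.92 to as low as -1.13, and CD45-positive over keratin cells of Fgfr2 KO went from 0.38 to as low as -4.09 for Areg and from 0.45 to as low as -3.43 for Hbegf. The count of members higher in Fgfr2 KO over Ctrl in CD45-positive cells went from 1 to 0 under the first, second and last of these and to 2 at 1.5-fold, and the count lower went from 0 to 1 without the top cell. In luminal keratin cells the count lower in Fgfr2 KO went from 1 to 2 with no keratin minimum, with 2 Ptprc UMIs, without Scrublet calls, with keratin-rich cells placed by keratin and at 1.5-fold, to 3 without the top cell, and to 0 with a 4-fold keratin difference or at least 50 UMIs. In basal keratin cells it went from 0 to 1 with no keratin minimum, without the top cell and at 1.5-fold. The count lower in CD45-positive than in keratin cells of Fgfr2 KO went from 0 to 2 with 2 Ptprc UMIs or keratin-rich cells placed by keratin, and to 3 without the top cell. The count lower in luminal than in basal keratin cells of Fgfr2 KO went from 1 to 0 without the top cell or at 50 UMIs, and that lower in hormone receptor-rich cells of Ctrl from 2 to 1 at 50 UMIs. Fewer UMIs or fewer cells enter by construction under the stricter limits. Otherwise the cause was not tested. Low summed counts limit Ereg and Btc in both libraries, and every member but Areg, Hbegf and Nrg1 in Fgfr2 KO. The median depth of luminal keratin cells was 24626 UMIs in Fgfr2 KO, over 20 cells, and 22668.5 in Ctrl, over 98 cells. For basal keratin cells it was 16985 UMIs over 17 cells and 16117 over 63 cells.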
